A study of Mus musculus with 6 samples.

Results

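The 35 genes described here carry glucose into the cell, break it down to pyruvate, exchange lactate and pyruvate across the plasma membrane, and admit pyruvate to the mitochondrion. They were chosen by symbol: the glucose transporters Slc2a1 and Slc2a3, the enzymes of glycolysis by isoform, the phosphoglucomutases, the monocarboxylate transporters, and the pyruvate carrier with the kinases and the phosphatase that set pyruvate dehydrogenase activity. All 35 symbols were found among the 55471 gene identifiers of the count table, Aldoa under a pair of identifiers, which gave 36 rows. RNA was sequenced from primary neurons of wild-type CD1 mouse cortex, taken at embryonic day 15 at the latest and grown for 11 days with 2 uM cytosine arabinoside, an inhibitor of cell division. On day 6 the neurons received lentivirus with a control short hairpin RNA (shControl, 3 libraries) or with one against Opa1 (shOpa1, 3 libraries), so the 2 groups differ in the hairpin and share virus, drug and age. Opa1 is a GTPase that fuses the inner mitochondrial membrane, and the comparison asks which transcripts change when it is depleted. The libraries are bulk cultures described as biological replicates, and neither the source of each culture nor the hairpin sequences are given in the sources used here.

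Glycolysis turns glucose into pyruvate in the cytosol. Pyruvate either enters the mitochondrion through its carrier and is oxidised by pyruvate dehydrogenase, or is reduced to lactate, which leaves or enters the cell on the monocarboxylate transporters MCT1 (Slc16a1), MCT2 (Slc16a7) and MCT4 (Slc16a3). In brain, neurons are known for the high-affinity carriers GLUT3 (Slc2a3) and MCT2, whereas GLUT1 (Slc2a1), MCT1 and MCT4 are best known from endothelium and glia. Phosphoglucomutases interconvert the phosphates of glucose at the branch to glycogen, and PFKFB enzymes set the level of fructose bisphosphate that drives phosphofructokinase.

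Library totals ran from 24676709 to 32961580 counts. Opa1 (chromosome 16) stood at 203 ± 1.54 CPM (read counts scaled to library size; mean ± SD, n = 3) in shControl and at 9.10 ± 0.916 CPM in shOpa1, 22.3-fold lower. The pair of libraries numbered 3 separated from the remaining 4 on the second principal component (26.4% of the variance), and same-numbered libraries deviated together. Values from a paired fit, which takes the replicate number as a block, are therefore given beside each of the 35 genes whose call they change, and beside the counts of other lists that they change. The summed level of 12 neuron markers was 10249 to 10758 CPM in shControl against 7350.2 to 7681 CPM in shOpa1, and that of 12 astrocyte markers 325 to 530.4 and 174 to 262 CPM, with replicate 3 the highest in both groups and S100b and Gjb6 under 1 CPM in every library. Of 10 microglia markers 9 were under 1 CPM in every library. Summed vascular and fibroblast markers (10 genes) ran from 16.2 to 30.1 CPM in shControl and from 11.1 to 56.5 CPM in shOpa1, the highest in shOpa1 replicate 1, where the collagens Col3a1 and Col1a2 stood at 23.0 and 12.0 CPM. The 10 oligodendrocyte lineage markers summed to 64.6 to 97.6 and 50.3 to 67.8 CPM and the 8 progenitor markers to 103 to 186 and 68.7 to 131 CPM. Fewer cells of a type and less RNA per cell cannot be told apart in these bulk samples.

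Of the 35 genes, 34 passed the low-count filter, and Pdk4, a pyruvate dehydrogenase kinase, did not, at 0.321 ± 0.0795 CPM in shControl against 0.201 ± 0.130 CPM in shOpa1. By edgeR's quasi-likelihood test with Benjamini-Hochberg adjustment over all 16562 tested genes, 9 of the 34 were higher in shOpa1 and 5 lower at an adjusted p under 0.05. The background was 38.9% of all tested genes called in either direction, 18.9% higher and 20.0% lower. In this test, which leaves the replicate numbers out, the share of called genes here, 41.2%, was near that background. So was the median log2 fold change (-0.02 against -0.01). Among the called genes that moved by at least 0.5 on the log2 scale, Slc2a1, Hk2, Pgm1, Tigar, Slc16a1, Slc16a3 and Pdk3 rose and Pgm2l1, Slc16a7, Pfkfb3 and Pdp1 fell, and the 8 genes from aldolase to pyruvate kinase stayed within 0.5 of 0. With the replicate block 12 were higher and 13 lower, 73.5% of the 34, against a background of 59.5% called, 28.8% higher and 30.7% lower. With both libraries numbered 3 left out, 12 were higher and 12 lower, 68.6% of the 35, against 50.9% of the 16702 genes tested in that fit, 24.8% higher and 26.1% lower. Without shControl replicate 3 the number of lower genes rose from 5 to 8. In the authors' deposited table, in which 40.9% of 19398 genes pass, 12 of the 35 were higher and 12 lower.

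**Figure D1:**
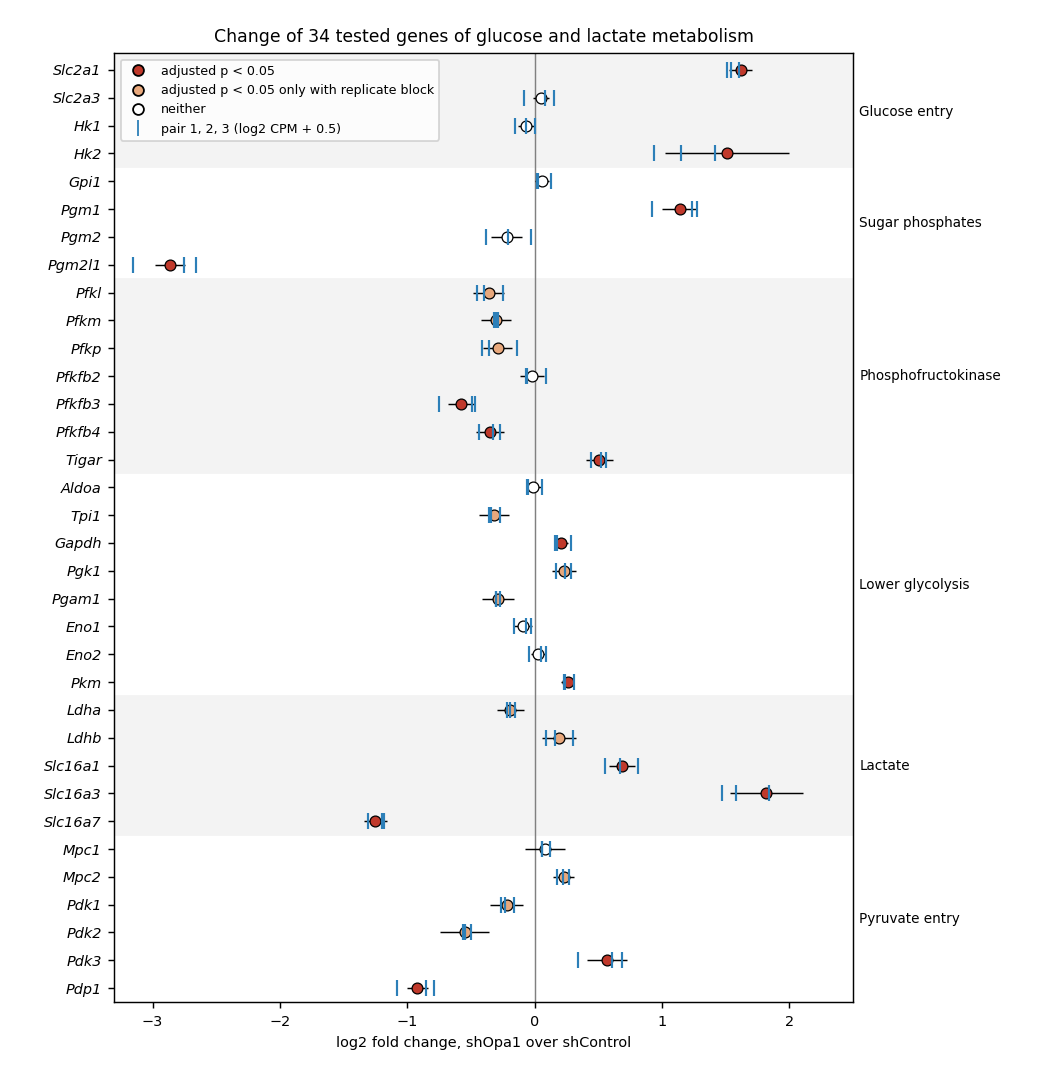
Log2 fold change of shOpa1 over shControl for the 34 tested genes, grouped by role, with the edgeR estimate as a circle, its standard error as a bar and the difference of each same-numbered pair as a tick. Red circles passed an adjusted p of 0.05 in the main test, orange circles with the replicate block but not in the main test, and white circles in neither fit. Pgm2l1 stands at -2.86, the far left, and Slc16a3 at 1.82, the far right.

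Earlier work on these data had found the 7-base sequence GAAACTA among 3′ UTRs of genes that fell, so its presence was looked up in the longest 3′ UTR of each gene, as a description with no test. It was present in 5 of the 34 tested genes (14.7%), whatever their change, against 9.63% of all tested genes with a UTR of at least 50 bases. The sites of these carriers are shown with the 7 bases in capitals, on the transcribed strand, from GENCODE mouse release 21 (GRCm38).
Pgm2l1 (chr7:100277428-100277434, plus strand): aaaaataaaagGAAACTAtcagaaaggaa
Slc16a7, first copy (chr10:125225679-125225685, minus strand): aaatacctttaGAAACTAatatagctatc
Slc16a7, second copy (chr10:125225063-125225069, minus strand): gtttaagataaGAAACTAgcttggtacca
Pdp1 (chr4:11960514-11960520, minus strand): gatgtttgaaaGAAACTAatatagttaat
Pfkp (chr13:6579840-6579846, minus strand): ttccgaacaaaGAAACTAgtaactcttgt
Tigar (chr6:127087394-127087400, minus strand): agtgtcctggaGAAACTAgctcttgggat
The 3 steepest falls among the 34 genes, those of Pgm2l1, Slc16a7 and Pdp1, are all carriers. Tigar carries a copy and rose, and Pfkp carries one and fell by 0.29 on the log2 scale, called with the block and not in the main test. The 5 carriers had a median log2 fold change of -0.92 and the 29 others one of 0.03. The 3′ UTRs ran from 1692 (Pfkp) to 8742 bases (Slc16a7) in the carriers and from 179 (Gapdh) to 3734 bases (Pdk1) in the others. Neither this contrast nor the one over all genes was matched for UTR length, and the part of length was not tested. Over all tested genes, 671 of 1334 carriers (50.3%) were lower and 107 higher, with a median of -0.42, whereas 2342 of 12516 genes with no copy (18.7%) were lower, with a median of 0.02. Because the sequence was picked from genes that fell in these same data, the differences between carriers and other genes cannot serve as support.

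Promoters were read from RefSeq (GRCm38.p6), as 250 bases before to 50 after the start; 32 of the 35 genes matched. The core of the hypoxia response element, ACGTG on either strand, was present in at least 1 listed promoter of 19 of the 32 (59.4%) and in 21.8% of 27025 genes with a promoter. That background takes in genes whether or not they were expressed here. It was not matched for the number of listed promoters per gene, and a gene with more of them has more room for a match. It was present in 8 of the 9 genes called higher (all but Tigar), in 2 of the 3 genes called lower that had a promoter (Pgm2l1 and Pfkfb3, not Pfkfb4) and in 9 of the 19 tested but uncalled ones that had one; the difference was not tested. The E-box CACGTG, which contains ACGTG, was present in 7 of 32 (21.9%, against 8.09% of genes), and the C/EBP-ATF response element TGATGNAA in 0 of 32 (4.51% of genes). The promoters of Slc2a1 and Slc16a3, whose fold changes were the highest 2 of the 34 genes, are given with ACGTG in capitals.
Slc2a1 (chr4:119108495-119108794, plus strand): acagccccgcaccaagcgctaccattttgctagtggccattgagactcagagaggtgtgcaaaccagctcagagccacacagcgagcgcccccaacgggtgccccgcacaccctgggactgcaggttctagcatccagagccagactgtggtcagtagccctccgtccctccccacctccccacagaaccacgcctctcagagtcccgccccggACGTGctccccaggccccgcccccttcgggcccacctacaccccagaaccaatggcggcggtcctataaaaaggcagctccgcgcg
Slc16a3 (chr11:120948817-120949116, plus strand): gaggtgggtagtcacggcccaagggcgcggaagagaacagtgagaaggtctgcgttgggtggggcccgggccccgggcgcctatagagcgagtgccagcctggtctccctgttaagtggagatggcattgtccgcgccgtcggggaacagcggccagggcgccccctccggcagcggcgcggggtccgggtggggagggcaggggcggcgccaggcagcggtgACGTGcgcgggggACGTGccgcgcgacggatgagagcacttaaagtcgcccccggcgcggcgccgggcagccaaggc
The Slc2a1 window holds a single match and the Slc16a3 window a pair, close together. A match is a run of letters and was not tested for binding.

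Among the genes of glucose entry, transcripts of Slc2a1 and Hk2 rose, of which the latter call rested on few reads. Uptake of glucose was not measured. Slc2a1 (chromosome 4), GLUT1, was at 6.92, 7.47 and 6.79 CPM in shControl replicates 1, 2 and 3 and at 22.1, 22.2 and 20.6 CPM in shOpa1. The groups were far apart and the 3 libraries of each lay close together. The fold change was 3.07, or 1.62 ± 0.0915 (SE) on the log2 scale (edgeR adjusted p = 5.36e-05). Of the endothelial genes among the markers, Cldn5 was at most 0.0371 CPM in any library, Pecam1 ran from 0.703 to 1.31 CPM and Flt1 from 0.451 to 2.84 CPM, and Kdr was at 3.29 to 5.08 CPM in shControl against 1.03 to 2.29 CPM in shOpa1; the part of endothelial cells in the Slc2a1 level was not tested. Slc2a3 (chromosome 6), GLUT3, was at 234, 249 and 250.2 CPM in shControl against 259.8, 263 and 237 CPM in shOpa1, overlapping ranges (log2 fold change 0.05 ± 0.0634, edgeR adjusted p = 0.559). Per kilobase of exon, Slc2a3 remained the larger of the pair, but the share of Slc2a1 in their sum was 5.64 ± 0.289% in shControl and 15.0 ± 0.196% in shOpa1 (n = 3 each). The fall of the Slc2a3 share was -9.38 percentage points, against -5.07 with no division by length and -6.02 with the longest protein-coding transcript as length, an alternative chosen after seeing the data. The shares did not overlap, which in a two-sided exact permutation test of 3 against 3 gives p = 0.1, the smallest possible. The same holds for every share below whose groups do not overlap; over the 26 shares tested their adjusted p was 0.186.

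Hexokinases trap glucose in the cell as glucose phosphate. Hk1, the main brain form, was at 501, 533 and 526 CPM in shControl against 476, 481 and 525 CPM in shOpa1, and did not pass the test (log2 fold change -0.07 ± 0.0625, edgeR adjusted p = 0.388). Hk2, the inducible form, was at 1.68, 1.57 and 0.667 CPM in shControl against 5.32, 4.09 and 1.74 CPM in shOpa1, where the counts were 165, 140 and 57. In both groups replicate 3 was the lowest, and the groups were narrowly separated. The log2 fold change of Hk2 was 1.51 ± 0.488 (edgeR adjusted p = 0.0457, or 1.96e-05 with the replicate block). The adjusted p was 0.0769, 0.0962 and 0.0984 without shControl replicates 1, 2 and 3 and 0.137 and 0.12 without shOpa1 replicates 1 and 2, 0.122 with no low-count filter and 0.0822 by limma-voom. Per kilobase Hk2 made up 0.359 ± 0.156% of the hexokinase pair in shControl and 1.08 ± 0.559% in shOpa1 (exact permutation p = 0.2), so nearly all hexokinase transcripts were Hk1 in every library.

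The phosphoglucomutases showed the largest turnover of any family described here. Pgm2l1 (chromosome 7), which makes glucose bisphosphate, a cofactor of the mutases, and is known for its high level in brain, was at 388, 360.5 and 403 CPM in shControl against 61.1, 53.0 and 45.0 CPM in shOpa1. All shOpa1 libraries lay far below all shControl libraries, and the fall was 7.24-fold (log2 fold change -2.86 ± 0.118, edgeR adjusted p = 2.36e-05). Its 3′ UTR carries the site shown above. Pgm1 (chromosome 4), the main phosphoglucomutase, was at 30.2, 35.5 and 42.9 CPM in shControl against 71.8, 86.8 and 81.5 CPM in shOpa1. It rose 2.21-fold with no overlap (log2 fold change 1.14 ± 0.136, edgeR adjusted p = 0.000858). Of the exon length of Pgm1, 13.6% overlaps Itgb3bp on the opposite strand, and the counting used no strand option. Pgm2, which acts mainly on pentose phosphates, was at 9.66 ± 1.19 CPM in shControl against 8.27 ± 0.102 CPM in shOpa1 and did not pass (log2 fold change -0.22 ± 0.122, edgeR adjusted p = 0.188). Per kilobase, Pgm2l1 made up 71.3 ± 2.43% of the family in shControl and 15.4 ± 2.89% in shOpa1, and Pgm1 22.0 ± 2.79% and 75.8 ± 3.35%. The family sum was 56.2 ± 3.35 CPM per kilobase in shControl and 36.1 ± 2.12 in shOpa1. Gpi1, glucose phosphate isomerase, which hands glucose phosphate on to glycolysis, was at 679 ± 30.8 and 709 ± 4.51 CPM (log2 fold change 0.06, edgeR adjusted p = 0.44).

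**Figure D2:**
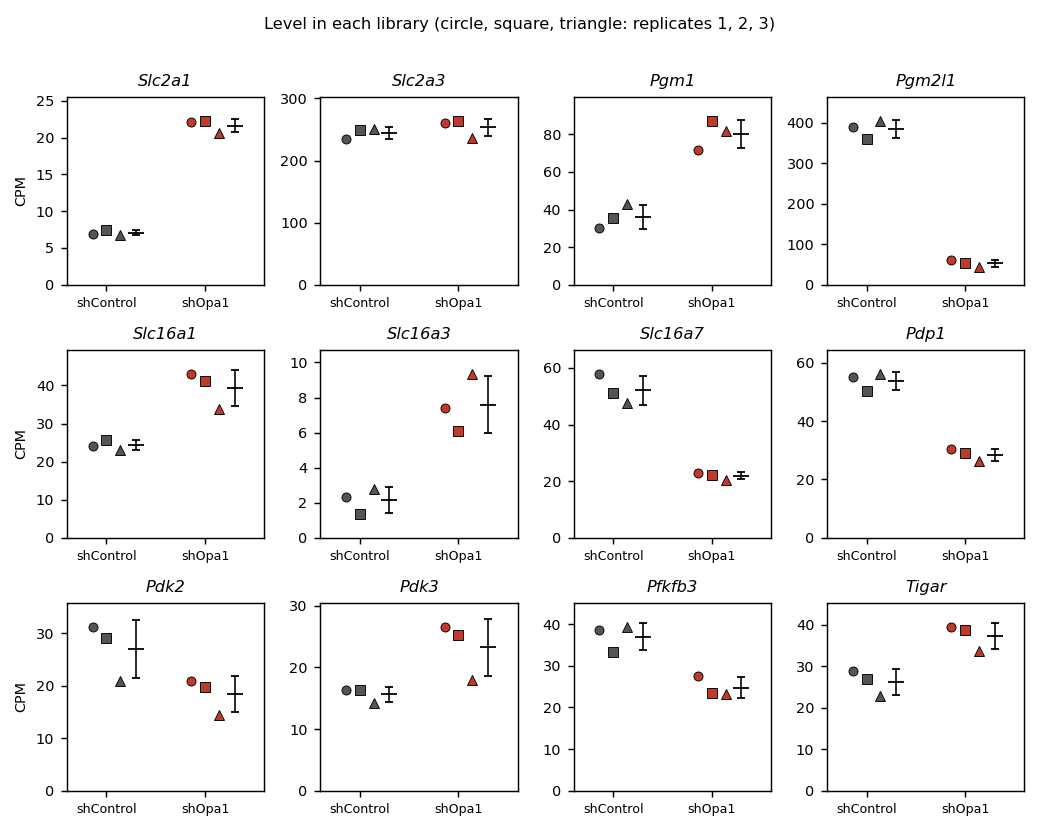
CPM of 12 genes in each library (y axis from 0; circle, square and triangle are replicates 1, 2 and 3), with the mean and SD of each group as a bar. Pgm2l1, Slc16a7 and Pdp1 are lower and Slc2a1, Pgm1, Slc16a1 and Slc16a3 higher in every shOpa1 library, and Slc2a3 overlaps.

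Phosphofructokinase catalyses the committed step of glycolysis, and its 3 isoforms had log2 fold changes between -0.36 and -0.29. None passed the main test, and all passed with the replicate block. In the authors' deposited table all 3 are called lower. Pfkp, the isoform with the most counts, was at 689, 625 and 715 CPM in shControl against 519, 487 and 649.9 CPM in shOpa1. Pfkm was at 296, 301 and 239 CPM in shControl against 239.7, 241 and 196 CPM in shOpa1. The groups overlapped for both because of their libraries numbered 3, but each shOpa1 library was below the shControl library of its number. Pfkl was at 82.9, 86.9 and 97.6 CPM in shControl against 60.5, 65.5 and 82.2 CPM in shOpa1, with no overlap. The edgeR adjusted p was 0.0543 for Pfkl, 0.0777 for Pfkm and 0.0819 for Pfkp, and 0.000141, 7.6e-05 and 0.000645 with the block. Pfkl also passed without shOpa1 replicate 3 (adjusted p = 0.00547), as did Pfkp (0.00593), and Pfkm without shControl replicate 3 (0.0212). The make-up of the trio overlapped between the groups: per kilobase Pfkm made up 56.5 ± 4.66% in shControl and 56.7 ± 6.61% in shOpa1 (exact permutation p = 1).

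The enzymes that adjust phosphofructokinase moved in both directions. PFKFB enzymes make and break down its activator, and Tigar breaks it down. Pfkfb3 (chromosome 2), the isoform known for high kinase activity, was at 38.5, 33.2 and 39.2 CPM in shControl against 27.6, 23.5 and 23.2 CPM in shOpa1. It fell without overlap, by 0.58 ± 0.102 on the log2 scale (edgeR adjusted p = 0.00409). Pfkfb4 was at 30.6, 31.6 and 36.3 CPM in shControl against 25.3, 23.2 and 28.8 CPM in shOpa1 (log2 fold change -0.35 ± 0.108, edgeR adjusted p = 0.0376). That call was lost with upper-quartile scaling (0.0634), without any one of the shControl replicates 1, 2 and 3 (0.0546, 0.0751 and 0.0958) and without shOpa1 replicate 1 (0.106) or 2 (0.126). Pfkfb2 was at 26.5 ± 2.67 and 26.2 ± 1.03 CPM and did not pass (log2 fold change -0.02, edgeR adjusted p = 0.904); 19.5% of its exon length overlaps other genes. Tigar (chromosome 6) was at 28.8, 27.0 and 22.8 CPM in shControl against 39.4, 38.8 and 33.7 CPM in shOpa1. All its shOpa1 libraries were above all shControl libraries (log2 fold change 0.51 ± 0.109, edgeR adjusted p = 0.00903). Per kilobase, Pfkfb3 made up 32.0 ± 2.08% of the 3 PFKFB genes in shControl and 26.9 ± 2.32% in shOpa1, with no overlap.

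The 8 genes of the lower pathway, from aldolase to pyruvate kinase, had log2 fold changes between -0.32 and 0.26. Pkm, pyruvate kinase, rose from 628 ± 11.1 to 753 ± 21.8 CPM (log2 fold change 0.26 ± 0.0536, edgeR adjusted p = 0.00784). Gapdh, glyceraldehyde phosphate dehydrogenase, rose from 447 ± 12.5 to 516 ± 18.4 CPM (0.21 ± 0.0563, edgeR adjusted p = 0.0228). Its call was lost without shControl replicate 2 (0.0844) or 3 (0.0516) and without shOpa1 replicate 1 (0.083) or 2 (0.0968). With the replicate block 3 of the 8 were higher and 2 lower. That is 62.5% called, near the 59.5% of all tested genes in that fit. Phosphoglycerate kinase, Pgk1, was at 240.3 ± 17.5 CPM in shControl against 283 ± 31.0 CPM in shOpa1 (edgeR adjusted p = 0.0924, and 0.000821 with the block). Triose phosphate isomerase, Tpi1, was at 302 ± 34.1 and 242 ± 30.8 CPM (0.0674 and 5.71e-05), and phosphoglycerate mutase, Pgam1, at 148 ± 18.6 and 121 ± 15.6 CPM (0.109 and 0.000166). Without shControl replicate 3, Tpi1 (0.0285) and Pgam1 (0.0341) passed with no block, and without shOpa1 replicate 3 Pgk1 did (0.0134). Aldolase Aldoa (686 ± 20.4 and 679.5 ± 27.0 CPM) and the enolases Eno1 (255 ± 20.3 and 239 ± 10.1 CPM) and Eno2 (421 ± 15.2 and 429.8 ± 7.51 CPM) passed in neither fit, and their groups overlapped. The second Aldoa identifier was at 2.68 and 2.70 CPM (log2 fold change 0.01). Near-identical copies elsewhere among the annotated transcripts (at least 95% identity over 100 bases or more) make several of these counts uncertain: 81 copies for Gapdh, 4 for Pgk1, 3 for Eno1 and 1 each for Pkm, Pgam1 and Tpi1. Likewise 5 each were found for Gpi1 and Ldha, 2 for Mpc1 and 1 for Ldhb, and short matches of 1.2% and 3.76% of the transcript for Pgm2l1 and Pdk4.

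Transcripts of the lactate and pyruvate transporters changed in opposite directions, that of MCT2 falling and those of MCT1 and MCT4 rising. Slc16a7 (chromosome 10), MCT2, was at 57.7, 51.0 and 47.5 CPM in shControl against 22.9, 22.3 and 20.5 CPM in shOpa1. It fell 2.38-fold with a wide gap between groups (log2 fold change -1.25 ± 0.0927, edgeR adjusted p = 0.00012), and its 3′ UTR holds a pair of the sites shown above. Slc16a1 (chromosome 3), MCT1, was at 24.2, 25.6 and 23.1 CPM in shControl against 42.9, 41.1 and 33.9 CPM in shOpa1, a rise of 1.62-fold (log2 fold change 0.69 ± 0.103, edgeR adjusted p = 0.00205). Slc16a3 (chromosome 11), MCT4, was at 2.35, 1.35 and 2.78 CPM in shControl against 7.38, 6.10 and 9.32 CPM in shOpa1. Its counts were low, 36 to 75 in shControl and 209 to 305 in shOpa1, yet the groups were separate and the rise was 3.52-fold (log2 fold change 1.82 ± 0.287, edgeR adjusted p = 0.00259). Both rises stand beside a summed level of 12 astrocyte markers of 325 to 530.4 CPM in shControl against 174 to 262 CPM in shOpa1. The gap between these ranges rests on Slc1a2 (210.2 to 296 CPM against 93.1 to 118 CPM). The other 11 markers summed to 115 to 234 CPM and 75.7 to 144 CPM, which overlap, sums taken after the values were seen. In each same-numbered pair their sum was still lower in shOpa1 (115 and 75.7, 126 and 86.0, 234 and 144 CPM). With the replicate block 8 of 11 tested astrocyte markers were lower and 1, Gfap, was higher. The part of glial cells in these levels was not tested. Per kilobase, Slc16a7 made up 42.7 ± 2.19% of the 3 transporters in shControl and 15.2 ± 0.324% in shOpa1, Slc16a1 53.4 ± 2.59% and 72.9 ± 3.58%, and Slc16a3 3.97 ± 1.46% and 11.9 ± 3.38%. None of the 3 shares overlapped between groups. The family sum was 10.3 ± 0.523 CPM per kilobase in shControl and 12.2 ± 0.940 in shOpa1.

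Lactate dehydrogenase is a tetramer of A and B subunits, of which the A form favours lactate production. Ldha was at 361, 316 and 287 CPM in shControl against 309.9, 284 and 251 CPM in shOpa1, and Ldhb at 288, 291 and 241 CPM and 322, 359 and 257 CPM. The ranges of both overlapped, and within each pair Ldha was lower and Ldhb higher in shOpa1. The edgeR adjusted p was 0.206 for Ldha and 0.294 for Ldhb, and 0.00227 and 0.00657 with the replicate block; Ldhb also passed without shOpa1 replicate 3 (0.0393). The share of Ldha in their sum per kilobase was 35.8 ± 1.68% in shControl and 30.1 ± 2.47% in shOpa1, with no overlap.

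**Figure D3:**
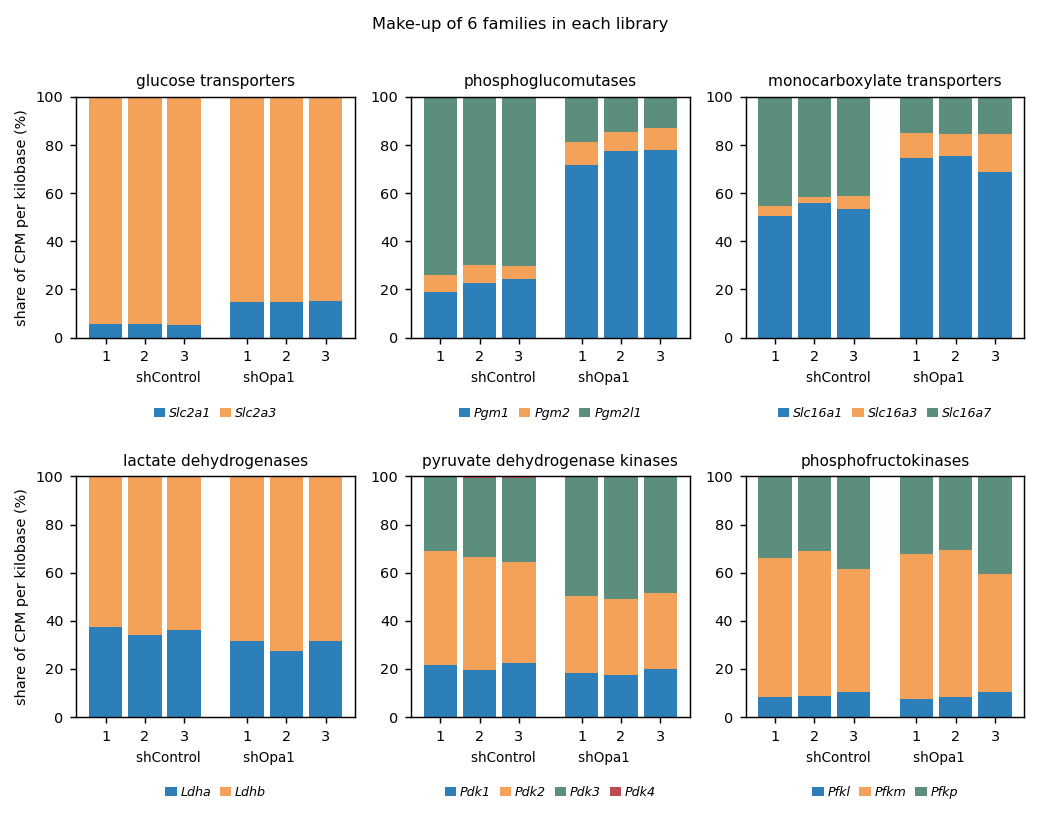
Share of each gene in the sum of CPM per kilobase of its family (y axis, %), one bar per library. The phosphoglucomutases change most, with Pgm2l1 at 71.3% in shControl and 15.4% in shOpa1, followed by the monocarboxylate transporters and the pyruvate dehydrogenase kinases, while the phosphofructokinase shares overlap.

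Among the genes of pyruvate entry, the phosphatase gene Pdp1 fell and the kinase gene Pdk3 rose, the latter call being lost without some libraries. Pdk2 did not pass the main test, passed with the replicate block and is called lower in the authors' deposited table. Pyruvate dehydrogenase kinases switch the complex off by phosphorylation and the phosphatase encoded by Pdp1 switches it on. Pdp1 (chromosome 4) was at 55.1, 50.3 and 56.0 CPM in shControl against 30.3, 29.0 and 26.2 CPM in shOpa1. It fell 1.89-fold with no overlap (log2 fold change -0.92 ± 0.0810, edgeR adjusted p = 0.000249), and it carries the site shown above. Pdk3 (chromosome X) was at 16.3, 16.4 and 14.2 CPM in shControl against 26.5, 25.3 and 18.0 CPM in shOpa1. It rose in all 3 pairs, least in the third (log2 fold change 0.57 ± 0.156, edgeR adjusted p = 0.0232). The adjusted p was 0.059, 0.0625 and 0.0616 without shControl replicates 1, 2 and 3 and 0.0826 and 0.0821 without shOpa1 replicates 1 and 2. Pdk2 was at 27.0 ± 5.43 CPM in shControl against 18.4 ± 3.39 CPM in shOpa1, from 741, 777 and 561 counts in shControl and 649, 674 and 475 in shOpa1. The groups just overlap, shControl replicate 3 at 20.8 CPM and shOpa1 replicate 1 at 20.9 CPM. Its log2 fold change was -0.55 ± 0.190, with an edgeR adjusted p of 0.0556, of 2.14e-05 with the replicate block and of 0.0145 without shControl replicate 3. Pdk1 was at 30.8 ± 4.00 and 26.5 ± 3.59 CPM (log2 fold change -0.22, edgeR adjusted p = 0.229, and 0.00847 with the block). Per kilobase, Pdk2 made up 45.4 ± 3.07% of the 4 kinases in shControl and 31.6 ± 0.165% in shOpa1, and Pdk3 32.9 ± 2.29% and 49.4 ± 1.11%. The order of the pair was reversed in every shOpa1 library, while the sum of the kinases was 18.7 ± 2.64 CPM per kilobase in shControl and 18.4 ± 3.32 in shOpa1. The mitochondrial pyruvate carrier has 2 subunits: Mpc1 was at 38.7 ± 6.23 and 41.0 ± 6.72 CPM (edgeR adjusted p = 0.709) and Mpc2 at 54.2 ± 3.36 and 63.4 ± 4.70 CPM (0.0613, 0.00264 with the block, and 0.0227 without shOpa1 replicate 3). Of the exon length of Mpc1, 23.1% overlaps another gene on the opposite strand.

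The libraries numbered 3 shifted many of the genes in parallel in both groups. By the rounded shifts of the 35 genes, 23 were lower in replicate 3 than in the mean of replicates 1 and 2 in both groups. Another 6 were higher in both, and 5 moved in opposite directions. The remaining gene, Pgm2, was at -0.27 in shControl and -0.00 in shOpa1 (log2). Hk2 was the lowest on this scale, at -0.86 in shControl and -1.20 in shOpa1 (log2), followed in shControl by Pdk2 at -0.52. Slc16a3 was the highest, at 0.52 and 0.45. Over the 35 genes the shifts of the 2 groups correlated with r = 0.827, a description only, since all genes share the same libraries. All 11 genes called with the replicate block and not in the main test had the same sign in all 3 pairs, as had the 14 called in the main test. The block fit favours genes whose pair differences agree. For the 14, the groups did not overlap, which fixes the sign of every pair. The shared signs therefore cannot serve as separate support for either set of calls.

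**Figure D4:**
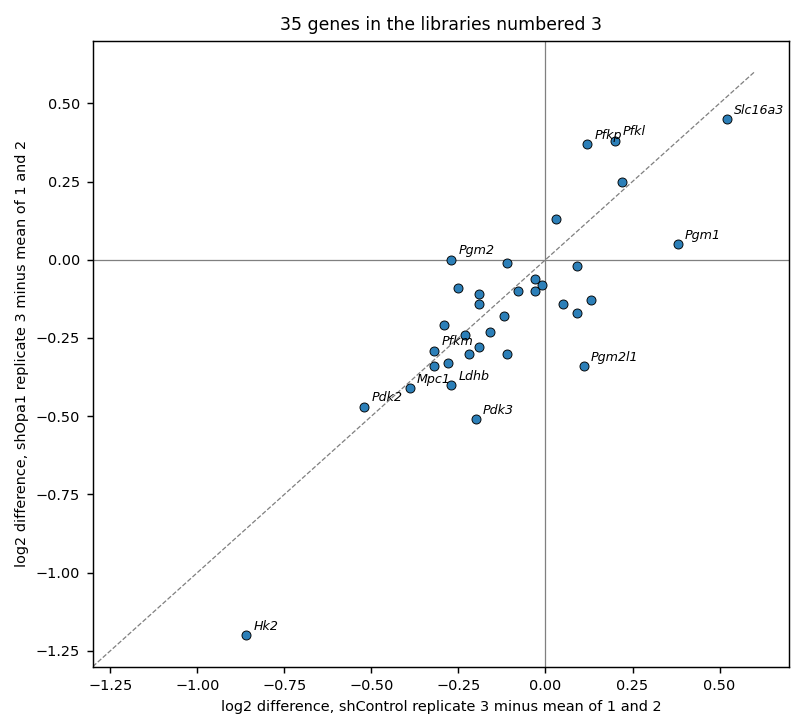
Log2 difference between replicate 3 and the mean of replicates 1 and 2 for each of the 35 genes, in shControl (x axis) and shOpa1 (y axis), with the line of equal shift dashed. Most points lie near the line, with Hk2 lowest in both groups (-0.86 and -1.20) and Slc16a3 among the highest (0.52 and 0.45).

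Neighbouring pathways were described from lists of other genes. The background is the same, 38.9% of all tested genes called, or 59.5% with the replicate block. Of 7 tested other glucose transporters, 1 was higher and 3 lower: Slc2a4, the insulin-regulated GLUT4, rose from 1.77 to 3.89 CPM (log2 fold change 1.14 ± 0.182), and Slc2a6, Slc2a8 and the inositol carrier Slc2a13 fell by 0.66, 0.55 and 0.69 on the log2 scale. Among 16 other isoforms of glycolytic enzymes 2 were higher (Pgam5, 0.57, a mitochondrial phosphatase of the mutase family, and the ADP-dependent glucokinase Adpgk, 0.52) and 2 lower (among them Eno3, -0.56), or 4 and 6 with the replicate block. Of 10 other monocarboxylate transporter genes 2 were higher (Slc16a6, 0.53, and Slc16a14, 0.51) and 2 lower (among them Slc16a13, -0.80), or 2 and 3 with the block. Bsg, the chaperone that carries MCT1 and MCT4 to the plasma membrane and was picked here for that role, was at 553 ± 42.0 CPM in shControl against 540.5 CPM in shOpa1 and did not pass.

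The list of the pyruvate dehydrogenase complex, which also holds phosphatase genes and pyruvate carboxylase (Pcx), had 2 of 8 tested genes higher and 1 lower. With the replicate block 7 were higher and 1 lower. The higher ones then include Pcx, Pdp2 and Pdpr, which are not subunits of the complex itself. In the main test Pdhb, the beta subunit of the first enzyme of the complex, rose by 0.31 ± 0.0534 on the log2 scale. Pdpr, a regulatory subunit of the phosphatase, rose by 0.78 ± 0.0707, while Pdhx, the binding protein of the third enzyme, fell by 0.83 ± 0.103. Of 20 tested glycogen genes 3 were higher and 5 lower, or 6 and 6 with the block. Pygb, the brain glycogen phosphorylase, whose product Pgm1 converts, fell from 246 ± 9.91 to 91.5 ± 6.50 CPM (log2 fold change -1.43 ± 0.0720, edgeR adjusted p = 3.45e-05). Ppp1r3d, a glycogen-targeting subunit of protein phosphatase, fell by 1.95 and the phosphorylase kinase subunit Phkb by 0.62. The longest 3′ UTRs of Pygb and Phkb carry 1 copy of GAAACTA and that of Ppp1r3d 2.

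Of 11 pentose phosphate genes 2 were higher (Rpia, 0.35, and Rbks, 0.68) and 2 lower (Tkt, -0.25, and G6pdx, -0.33); with the block 4 were lower. Of 19 genes of hexosamine synthesis and entry of other sugars 3 were higher and 3 lower, or 6 and 7 with the block; Gfpt1, the rate-limiting enzyme of hexosamine synthesis, fell from 179.5 ± 4.76 to 75.8 ± 12.3 CPM and carries 1 copy of GAAACTA. Gnpda1, which runs that step in reverse, rose by 0.83, and Uap1 and Oga fell by 0.45 and 0.33. Pgm3 also carries 1 copy, with a log2 fold change of -0.33 (edgeR adjusted p = 0.0535, and 0.00408 with the block). The shuttles that carry cytosolic NADH to the mitochondrion had 4 of 10 genes higher and 2 lower, or 5 and 3 with the block. Got1 (0.72) and Mdh1 (0.59) of the malate-aspartate shuttle rose. On the glycerol phosphate side Gpd1 (-0.64) and Gpd1l (-0.58) fell, whereas Gpd2 rose (0.26 ± 0.0739, edgeR adjusted p = 0.026). Gpd2, named after its value was seen, carries 1 copy of GAAACTA. Of 27 tested genes that respond to or regulate hypoxia and glucose sensing, 6 were higher and 11 lower, or 10 and 12 with the block. The hypoxia target Vegfa rose by 0.73, while Ndrg1 and Ero1l, induced in hypoxia as well, fell by 1.23 and 0.78. Arrdc4, a target of the glucose sensor Mlxip, fell by 0.56. Of these, Ero1l carries 1 copy of GAAACTA. Calls beyond these went both ways: among others, Bnip3 (0.75), P4ha1 (0.43), Egln1 (0.31) and Hif1a (0.30) were higher, and Ankrd37 (-1.56) and Hif3a (-0.71) lower. They were named after their values were seen. Among neuron markers 2 of 12 were higher (Nefl, 0.37, and Gad2, 0.34, named after their values were seen) and 7 lower, or 2 and 10 with the block. Syt1, Dcx and Snap25, all carriers of 1 copy, fell by 0.99, 0.49 and 0.58 and Stmn2, with 0 copies, by 0.41. Of 11 tested astrocyte markers 1 was higher (Gfap, 0.82) and 3 lower (Slc1a2, -1.26, S100b, -2.22, and Gja1, -2.37), or 1 and 8 with the block. Slc1a2 and Gja1 carry 1 copy of GAAACTA each. Of the remaining marker lists, 3 of 8 oligodendrocyte lineage, 3 of 7 progenitor, 1 of 9 vascular and 1 of 1 tested microglia genes were lower, and 0 higher. With the block 4 oligodendrocyte lineage and 4 progenitor genes were lower and 1 progenitor gene, Nes, was higher (log2 fold change 0.70, edgeR adjusted p = 0.0137), named after its value was seen. The vascular marker Rgs5 carries 1 copy of GAAACTA and was called neither in the main test (log2 fold change 0.07) nor with the block.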

How the data were processed

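Per the labels' protocols, a stranded mRNA kit was used on RNA of the 6 cultures. The authors deposited raw counts per gene, made with featureCounts 1.6.0 on Ensembl release 99 models of GRCm38, per the file headers, whose command gives no strand option. The submitters' processing notes name HISAT2 and DESeq2. The authors' deposited comparison holds a log2 fold change with its error, a p-value, a score and a size-factor normalised signal per gene; only its fold changes and calls are quoted. No row lacked a gene, 55144 identifiers were paired with a symbol, and 0 value columns lacked a sample.

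Genes were tested with edgeR 4.0.16 in R 4.3.3 (TMM, default low-count filter, robust quasi-likelihood, group as the only term, Benjamini-Hochberg over all tested genes), the main test. CPM values use TMM-scaled library sizes; pair differences use log2(CPM + 0.5). Standard errors are the log2 fold change over the square root of F. Shares divide CPM by the exon length of the count table and were tested by two-sided exact permutation. Replicate numbers come from the labels' titles. Deviations from group means correlated at 0.519, 0.537 and 0.666 within numbers and at most at 0.111 between numbers. By this check the numbers pair the libraries, though the labels do not say what same-numbered libraries share. The main test and the share permutations leave this pairing out, so the calls of the main test are to be read beside those of the block. No library repeated another (chi-square per degree of freedom 6.11 to 30.8). P-values rest on the spread between libraries, which may be technical.

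The genes, lists, 7-base sequence and promoter motifs were chosen with earlier results of these data known. Genes described in full had an adjusted p under 0.05 and a log2 change of at least 0.5, with their isoforms; of each list, up to 4 called genes of smallest p are named. Values of some genes this rule names are not reported here. Opa1 was the check of the knockdown. Of 204 list symbols, 2 (Gpi and Mpc1l) were unmatched. Copies were sought with BLAST 2.17.0. Alternatives were other filters, scalings (RLE, upper quartile), DESeq2 1.42.0, limma-voom (limma 3.58.1), the block, replicate 3 as a second batch, left-out libraries and other gene lengths. On simulated counts for 16562 genes, the main test recovered 152 of 200 genes set to a 2-fold change beside 17 false calls, and the block 153 beside 33. The simulated counts held no replicate effect, unlike these libraries, so they cannot rank the block against the main test here.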

Additional observations from a re-analysis of the deposited data

How the results depend on the processing

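Of the 14 called genes, 10 (Slc2a1, Pgm1, Pgm2l1, Pfkfb3, Tigar, Pkm, Slc16a1, Slc16a3, Slc16a7 and Pdp1) kept their direction and an adjusted p under 0.05 in all 14 alternative settings. Hk2 lost the call in 7 of the 14, Pfkfb4 in 6, Pdk3 in 5 and Gapdh in 4, as given with their values above, and no called gene changed sign. The replicate block changed calls only by adding 11, and no call of the main test was lost with it.

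The number of lower genes among the 34, 5 in the main test, was 8 with no low-count filter, 8 by DESeq2, 13 with the replicate block, 13 with replicate 3 as a second batch and 12 with pairs 1 and 2 only. Leaving out 1 library at a time gave 4 to 8 lower and 6 to 12 higher genes. Over all genes the block gave 4770 higher and 5081 lower, and leaving out 1 library 2168 to 3168 higher and 2421 to 3458 lower. The median log2 fold change of all genes was 0.04 with upper-quartile scaling and -0.01 in the main test. Differences in share with no division by gene length were -5.07 percentage points for Slc2a3, 26.0 for Slc16a1, -34.4 for Slc16a7, 12.6 for Pdk3, -9.52 for Pdk2 and -51.8 for Pgm2l1, all in the direction of the main values. That of Slc2a3 was -6.02 with the longest transcript as length and -9.11 with pairs 1 and 2 only. The cause was not tested. At 3 libraries a group no share could pass 0.05, and the levels of Hk2, Slc16a3 and Pdk4 rest on few counts.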
